A study of Arabidopsis thaliana with 32 samples.

Results

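The H2A variant genes studied here are 8 genes of Arabidopsis thaliana in 3 classes. They are 2 genes of H2A.X (HTA3 and HTA5), 3 of H2A.W (HTA6, HTA7 and HTA12) and 3 of H2A.Z (HTA8, HTA9 and HTA11). All were taken by gene identifier from a table of 33341 genes. No threshold on their values was used, but earlier results of these data were known. All 8 passed the filter on low counts along with 19575 genes in all. Transcripts were counted in 8 RNA-seq libraries from leaves of 3-week-old Col-0 plants grown in long days of 16 h light and 8 h dark. The 4 genotypes, with 2 libraries each, were wild type, a mutant of both ATXR5 and ATXR6 (atxr5/6), a mutant of GCN5 (gcn5) and plants mutant for all 3 genes (atxr5/6 gcn5); the labels used here name no alleles. ATXR5 and ATXR6 monomethylate lysine 27 of the replication-dependent histone H3.1. GCN5 acetylates histones. Nothing in the labels says that the 2 libraries of a genotype came from separate plants, so p-values measure only the spread between these libraries, which may be technical.

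Histone H2A variants replace canonical H2A in particular parts of chromatin. H2A.Z is placed by the SWR1 remodelling complex near the starts of genes and in the bodies of genes that respond to the environment. H2A.W is the plant variant of constitutive heterochromatin, where it is found with transposons and depends on the remodeller DDM1. H2A.X carries a C-terminal motif that the kinases ATM and ATR phosphorylate at DNA breaks.

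The libraries held 24860332 to 43969417 gene counts. Library composition followed the gcn5 label. Plastid genes held 53.8% to 57.4% of counts in the 4 libraries without the label and 43.2% to 46.5% in the 4 with it. A list of 7 features of the nuclear ribosomal DNA (rDNA), 5 of them with counts, held 0.121% to 1.099% and 5.19% to 8.47%. With the 10 features of both rDNA loci these ranges were 0.298% to 2.38% and 13.4% to 21.6%. A batch that follows these shares cannot be told apart from the gcn5 label. ATXR5 was at 3.23 ± 0.0388 CPM (normalised counts per 1e6; SD, n = 2) in wild type and 0.813 ± 0.0512 in atxr5/6, 2.01 ± 0.0864 in gcn5, where it was also called lower (adjusted p = 0.0200, edgeR), and 0.200 ± 0.0407 in atxr5/6 gcn5. ATXR6 was at 0.460 ± 0.00495 CPM in wild type and 0.206 ± 0.0140 in atxr5/6, and its difference did not pass the test (adjusted p = 0.0844, edgeR). In atxr5/6 gcn5 ATXR6 was at 0.483 ± 0.150 CPM, no lower than in wild type (edgeR, adjusted p = 0.874). In gcn5 it was at 0.823 ± 0.0990 CPM, above atxr5/6 gcn5. These values rest on 11 to 18 counts in atxr5/6 gcn5 and 20 to 22 in gcn5. They do not settle the label of atxr5/6 gcn5 for ATXR6. GCN5 was at 4.79 ± 0.762 CPM in wild type and 5.11 ± 0.355 in gcn5, so its counts did not separate the libraries labelled gcn5, and the names of both genotypes with gcn5 are used below as labels of libraries. The defining markers of root were at or near 0, with 0 to 8 counts in all over 4 genes. The 4 flower markers summed to 1.66 to 5.57 CPM, against 7217 to 13021 CPM for 5 leaf markers.

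The first comparison asked whether H2A variant transcripts change without ATXR5 and ATXR6. Between atxr5/6 and wild type, 0 of the 8 variant genes were called at a Benjamini-Hochberg adjusted p under 0.05 over all genes (edgeR quasi-likelihood test), where 13.2% of all genes tested were called. At an unadjusted p under 0.05 there was 1 (HTA9), and DESeq2 called 0. The 95% intervals of the 8 log2 fold changes together ran from -0.63 to 0.61. The second comparison asked the same of gcn5. In gcn5, 3 of 8 were called, with HTA5 and HTA8 higher and HTA12 lower, beside 37.5% of all genes (18.1% higher and 19.4% lower). With 8 genes, this share is that of the table as a whole. The median log2 fold change of the 8 was 0.28, and that of all genes was 0.01.

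**Figure D1:**
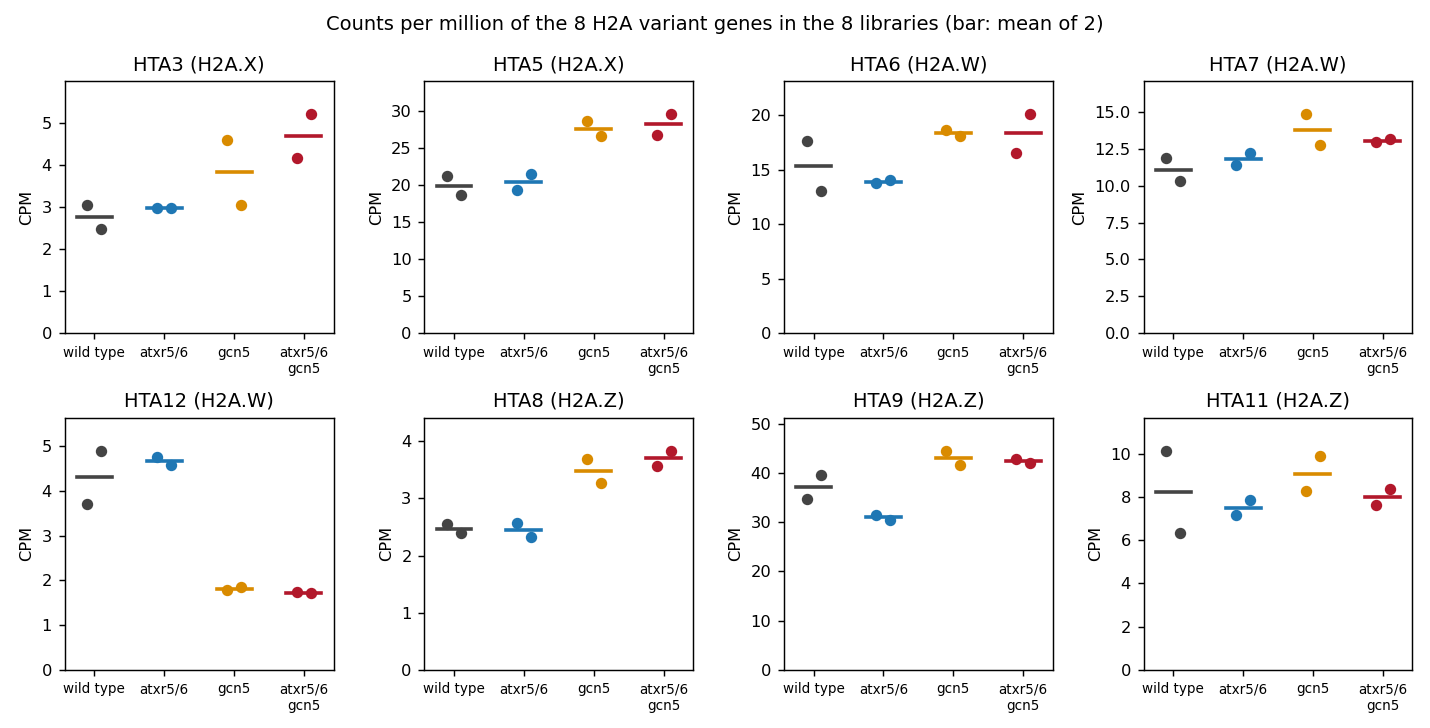
CPM (vertical axes, linear and starting at 0, each gene on its own scale) of the 8 H2A variant genes in each of the 8 libraries, grouped by genotype on the horizontal axis; points are libraries and bars are means of 2. HTA12 lies between 1.71 and 1.84 CPM in the 4 libraries with the gcn5 label and between 3.72 and 4.90 in the others.

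HTA12 (AT5G02560), an H2A.W gene, had the largest change among the 8 genes in gcn5. Its level was 3.72 and 4.90 CPM in wild type, 4.77 and 4.57 in atxr5/6, 1.79 and 1.84 in gcn5, and 1.73 and 1.71 in atxr5/6 gcn5. The 4 libraries with the gcn5 label lay below the other 4, with no overlap. HTA5, HTA7, HTA8 and HTA9 split by the label too, upward, and HTA3 did so narrowly. The share of all genes that split by the label was not determined here, so no trait of the 8 genes is read from these splits. The values of HTA12 rest on 44 to 53 counts in the libraries with the label and 127 to 221 in those without. HTA12 overlaps AT5G02570, which had 0 counts in all 8 libraries. HTA12 fell in gcn5 relative to wild type, with a log2 fold change of -1.23 and an SE of 0.18 (edgeR, adjusted p = 0.00217). It fell likewise in atxr5/6 gcn5 relative to atxr5/6, at -1.44 with an SE of 0.18 (adjusted p = 0.000907). The call was lost with the rDNA share as a covariate, at log2 fold changes of -1.18 and -1.39, and with no other alternative run. In bulk leaf RNA, fewer cells that express a gene and less RNA per cell cannot be told apart. Leaf markers moved with HTA12: their summed CPM was 11930 to 13021 without the gcn5 label and 7217 to 8572 with it. Of these 5 genes, 4 were called lower in gcn5, beside 19.4% of all genes. The part of the leaf markers in the result was not tested.

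The other H2A.W genes, HTA6 and HTA7, were called in no comparison in the fit of all 8 libraries. HTA6 (AT5G59870) measured 17.7 and 13.1 CPM in wild type, 13.8 and 14.1 in atxr5/6, 18.7 and 18.1 in gcn5, and 16.5 and 20.14 in atxr5/6 gcn5. Its gcn5 libraries lay above both wild-type libraries, by 0.25 on the log2 scale with an SE of 0.15, which was not called (edgeR, adjusted p = 0.221). The atxr5/6 gcn5 libraries of HTA6 lay above both atxr5/6 libraries, by 0.40 (SE 0.15, edgeR adjusted p = 0.0720, not called). That change was called when no filter on low counts was used. HTA7 (AT5G27670) measured 11.9 and 10.3 CPM in wild type, 11.4 and 12.3 in atxr5/6, 14.9 and 12.8 in gcn5, and 13.0 and 13.2 in atxr5/6 gcn5. In gcn5 it was 0.31 higher on the log2 scale with an SE of 0.12, also not called (edgeR, adjusted p = 0.0650).

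The balance of genes within a class was compared as the ratio of their counts in the same library, which does not depend on library scaling. These ratios were added after the values of HTA12 were seen, and are given as a description. An exact permutation test by the gcn5 label gave adjusted p = 0.1 for both ratios to HTA12, over 7 pairs. Its smallest possible unadjusted p was 0.0286, which both ratios had, so a larger difference could not have given a lower p. Each side of the test pooled libraries of different genotypes. As the test also followed a look at the values, no conclusion is drawn from it. The log2 ratio of HTA6 to HTA12 was 3.36 ± 0.133 (SD, n = 4) in the libraries with the gcn5 label and 1.70 ± 0.374 (n = 4) in those without, with no overlap. The ratio of HTA7 to HTA12 was 2.91 ± 0.111 with the label and 1.35 ± 0.256 without, again with no overlap. The ratio of HTA6 to HTA7 was 0.45 ± 0.134 with the label and 0.35 ± 0.163 without.

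**Figure D2:**
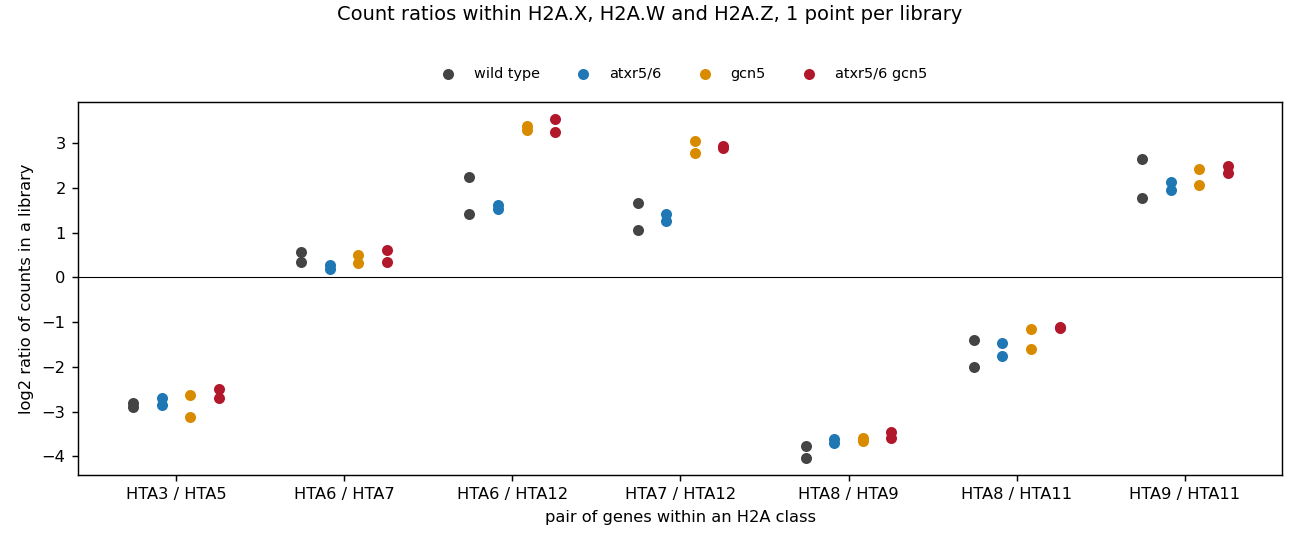
Log2 ratio of the counts of 2 genes of the same H2A class in the same library (vertical axis) for 7 pairs (horizontal axis); each point is a library, coloured by genotype. The ratios to HTA12 lie at 2.78 to 3.54 in libraries with the gcn5 label and at 1.07 to 2.25 in those without.

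Both H2A.X genes lay higher in libraries with the gcn5 label. HTA5 (AT1G08880) measured 21.2 and 18.7 CPM in wild type, 19.3 and 21.5 in atxr5/6, 28.7 and 26.6 in gcn5, and 26.8 and 29.7 in atxr5/6 gcn5. Wild type and atxr5/6 overlapped, as did gcn5 and atxr5/6 gcn5, and the first pair lay below the second. HTA5 rose 1.38-fold in gcn5 (log2 value 0.47, SE 0.11, edgeR adjusted p = 0.0125) and in atxr5/6 gcn5 against atxr5/6 by 0.47 (SE 0.11, adjusted p = 0.0118). The call in gcn5 was lost without wild-type replicate 2, without gcn5 replicate 1, with library totals alone and with the rDNA share as a covariate. The call against atxr5/6 was lost without atxr5/6 replicate 1, with library totals alone and with the same covariate. HTA3 (AT1G54690) measured 3.04 and 2.47 CPM in wild type, 2.98 and 2.97 in atxr5/6, 4.59 and 3.05 in gcn5, and 4.15 and 5.21 in atxr5/6 gcn5. Its gcn5 libraries were far apart, and the lower one stood just above the wild-type libraries. HTA3 was not called in gcn5 (log2 value 0.45, SE 0.23, edgeR adjusted p = 0.151). It was called in atxr5/6 gcn5 against wild type (0.75, SE 0.22, adjusted p = 0.0286) and against atxr5/6 (0.65, SE 0.22, adjusted p = 0.0467), lost in 9 and 15 of 22 alternatives, DESeq2 among them in both. HTA3 overlaps AT1G54680, which had 30 to 65 counts per library, and the use of strand in counting is not given in the sources used here.

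The H2A.Z gene HTA8 (AT2G38810) measured 2.54 and 2.39 CPM in wild type, 2.57 and 2.32 in atxr5/6, 3.69 and 3.27 in gcn5, and 3.56 and 3.84 in atxr5/6 gcn5. Its 4 libraries with the gcn5 label lay above the other 4. HTA8 rose in gcn5 by 0.49 on the log2 scale (SE 0.15, adjusted p = 0.0382, edgeR) and in atxr5/6 gcn5 against atxr5/6 by 0.59 (SE 0.15, adjusted p = 0.0176). The call in gcn5 was lost in 14 of 22 alternatives and that against atxr5/6 in 8 of 22, DESeq2 among them in both. The latter was also lost without either atxr5/6 library.

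HTA9 (AT1G52740) measured 34.8 and 39.5 CPM in wild type, 31.5 and 30.4 in atxr5/6, 44.6 and 41.6 in gcn5, and 42.8 and 42.1 in atxr5/6 gcn5. In order of level, atxr5/6 was lowest, then wild type, and gcn5 and atxr5/6 gcn5 overlapped at the top. HTA9 was not called in atxr5/6 (log2 value -0.26, SE 0.09, edgeR adjusted p = 0.108) or in gcn5 (0.21, SE 0.09, adjusted p = 0.108). The triple mutant exceeded atxr5/6, and this was called (0.45, SE 0.09, adjusted p = 0.00788). That call was lost without either atxr5/6 library, with library totals alone and with the rDNA share as a covariate. HTA9 overlaps AT1G52750, which had 4 to 160 counts per library.

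HTA11 (AT3G54560) measured 10.2 and 6.33 CPM in wild type, 7.15 and 7.84 in atxr5/6, 8.28 and 9.90 in gcn5, and 7.65 and 8.39 in atxr5/6 gcn5. The wild-type libraries spanned all the others, and no comparison of HTA11 was called in the fit of all 8 libraries. Its log2 fold change in gcn5 was 0.12, with a 95% interval from -0.36 to 0.60. With 1 library left out this value ran from -0.20 to 0.52, so it depended on single libraries. The log2 ratio of HTA8 to HTA9 was -3.57 ± 0.0870 (SD, n = 4) with the gcn5 label and -3.78 ± 0.182 without, and the 2 sets of libraries overlapped.

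**Figure D3:**
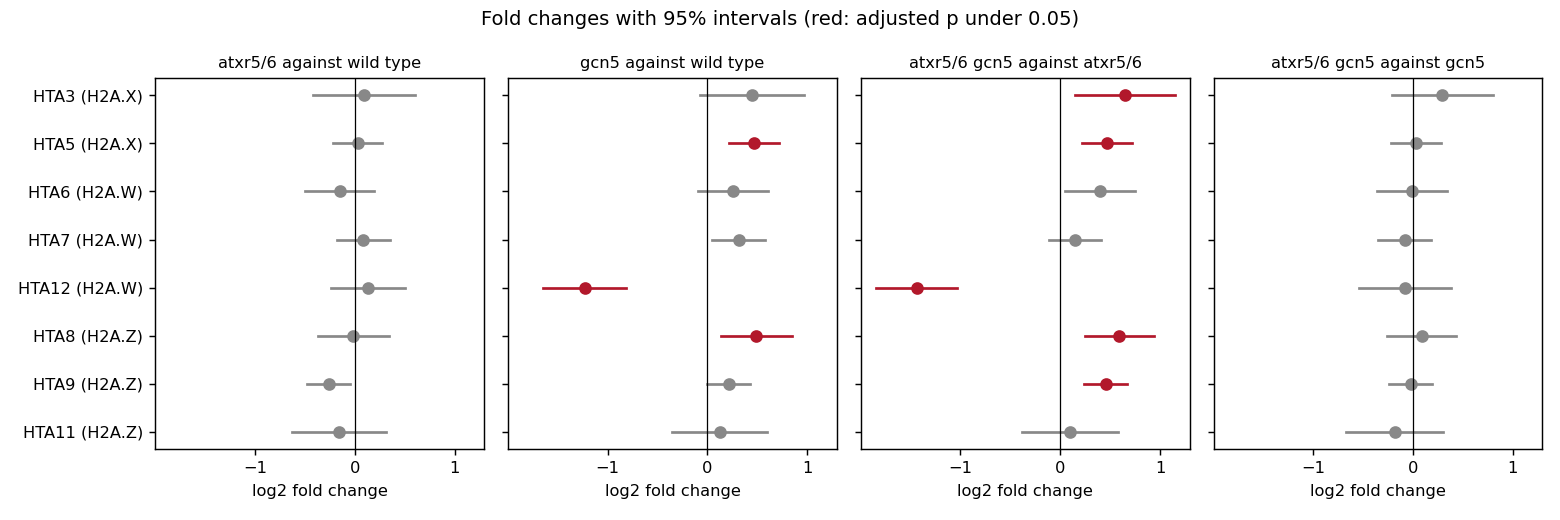
Log2 fold changes (horizontal axes) of the 8 H2A variant genes in 4 comparisons between genotypes, with 95% intervals from the edgeR fit; red marks an adjusted p under 0.05 and grey the rest. HTA12 lies at -1.23 in the second panel and at -1.44 in atxr5/6 gcn5 against atxr5/6, and no gene is red in the first and last panels.

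The triple mutant was set against wild type and each parent. Against wild type, 4 of 8 variant genes were called, beside 39.1% of all genes (18.7% higher and 20.4% lower): HTA3, HTA5 and HTA8 were higher and HTA12 was lower (-1.31 on the log2 scale, SE 0.18, edgeR adjusted p = 0.00146). Against atxr5/6, 5 of 8 were called, beside 36.7% of all genes (18.4% higher and 18.3% lower): HTA3, HTA5, HTA8 and HTA9 were higher and HTA12 was lower. Leaving out atxr5/6 replicate 1 lowered this count to 1, and leaving out wild-type replicate 2 lowered the counts of gcn5 and of atxr5/6 gcn5 against wild type to 1 each. Calls over all genes fell in the same fits, from 7179 to 2815 against atxr5/6 without its replicate 1. Without wild-type replicate 2 they fell from 7343 to 5703 in gcn5 and from 7651 to 6166 in atxr5/6 gcn5. Without gcn5 replicate 1 the count in gcn5 was 1, and without wild-type replicate 1 it was 5. Against wild type, the triple mutant had 2 calls without its replicate 2, and against atxr5/6 it had 2 without atxr5/6 replicate 2 and 3 without its own replicate 2.

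Against gcn5, 0 of 8 variant genes were called in the triple mutant, beside 0.0920% of all genes; 0 had an unadjusted p under 0.05 and DESeq2 called 0. The log2 fold changes ran from -0.18 (HTA11) to 0.30 (HTA3), and their 95% intervals together from -0.66 to 0.80. The interaction, which asks whether the change that goes with the gcn5 label differs with and without atxr5/6, was called for 0 of 8 genes, beside 0.470% of all genes. Here too 0 had an unadjusted p under 0.05 and DESeq2 called 0. The intervals of the interaction ran from -0.80 (HTA12) to 0.92 (HTA3) on the log2 scale.

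Across the 8 libraries, the log2 CPM of HTA5 and HTA8 had a Pearson correlation of 0.95, and that of HTA12 with HTA5 and with HTA8 was -0.97 each. HTA11 and HTA9 had a correlation of 0.12. These values describe 8 libraries that fall into separate sets by the gcn5 label. Among all other genes tested, those most alike to HTA12 by the same measure were AT4G06534, AT4G01670 and the plastid gene ATCG00440 (Pearson correlations of 0.997, 0.996 and 0.995). For HTA8 they were ATCS (0.994), AT2G03380 (0.994) and AT1G80950 (0.990). For HTA5 they were AT5G20290 (0.994), AT5G54750 and AT5G42150 (0.992 each), and for HTA9 they were AT1G54320 (0.997), PAO4 (0.993) and DUR3 (0.992). For HTA6 they were AT1G48840 (0.996), AT5G15270 (0.988) and AT5G62300 (0.987), and for HTA7 AT5G06550 (0.976), SUVR2 (0.975) and AT4G22310 (0.974). HTA3 was most like ATML1 (0.972), AT1G80245 (0.971) and GLTP1 (0.970). HTA11 was most like TUB7 (0.974), AT2G07623 (0.933) and AT2G43280 (0.932).

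The remaining 5 H2A genes include the canonical, replication-linked HTA1, HTA2, HTA10 and HTA13, and HTA4. HTA4 lies outside the variant genes as chosen here, and no class was assigned to it. HTA4 (AT4G13570) measured 7.39 and 8.92 CPM in wild type, 12.7 and 13.4 in atxr5/6, 18.8 and 18.6 in gcn5, and 17.2 and 19.4 in atxr5/6 gcn5. All 3 mutants lay above wild type, with atxr5/6 between it and the others. On the log2 scale HTA4 rose by 0.68 in atxr5/6 (SE 0.12, edgeR adjusted p = 0.0102) and by 1.21 in gcn5 (SE 0.12, adjusted p = 0.000446). HTA10 rose in gcn5 (0.38, SE 0.13, adjusted p = 0.0478), and its 0.42 in atxr5/6 was not called (adjusted p = 0.0644). HTA1, HTA2 and HTA13 were called in neither single mutant, with log2 fold changes from -0.19 to 0.21 in atxr5/6 and from -0.23 to 0.42 in gcn5. HTA2 fell by 0.48 on the log2 scale in atxr5/6 gcn5 against atxr5/6 (SE 0.14, adjusted p = 0.0300, edgeR).

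Of 13 genes for H2A.Z deposition and removal, 0 were called in atxr5/6 (1 at an unadjusted p under 0.05), beside 13.2% of all genes. In gcn5, 5 rose and none fell, beside 37.5% of all genes called and 18.1% called higher. The median log2 fold change of the 13 in gcn5 was 0.28. NRP2, a histone chaperone, measured 7.65 and 6.18 CPM in wild type against 14.4 and 15.1 in gcn5, and rose by 1.08 (SE 0.12, adjusted p = 0.000817, edgeR). Its paralogue NRP1 rose by 0.90 (SE 0.14, adjusted p = 0.00252), and PIE1, the SWR1 ATPase, by 0.60 (SE 0.11, adjusted p = 0.00425).

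Of 9 genes of heterochromatin, 8 were tested. Of these, 2 rose in atxr5/6 and 4 in gcn5, with none lower, beside 13.2% and 37.5% of all genes called. Called higher were 1072 of all 19575 genes in atxr5/6 and 18.1% in gcn5. The maintenance DNA methyltransferase MET1 rose in atxr5/6 by 0.66 (SE 0.14, adjusted p = 0.0227, edgeR) and in gcn5 by 0.80 (SE 0.15, adjusted p = 0.00487). The histone H3 lysine 9 methyltransferase SUVH4 rose in atxr5/6 by 0.52 (SE 0.14, adjusted p = 0.0453). The DNA methyltransferases CMT2 and CMT3 rose in gcn5 by 0.70 (SE 0.12, adjusted p = 0.00387) and 0.63 (SE 0.15, adjusted p = 0.0129). DDM1, chosen after its values were seen, measured 6.78 and 5.10 CPM in wild type, 7.60 and 7.97 in atxr5/6, 6.21 and 5.95 in gcn5, and 5.79 and 6.85 in atxr5/6 gcn5. Its atxr5/6 libraries lay above wild type (log2 value 0.37, SE 0.15, edgeR adjusted p = 0.151, not called), and its gcn5 libraries fell within the wild-type range.

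Of 11 genes of H2A.X signalling and repair, 3 rose and 1 fell in atxr5/6, beside 13.2% of all genes called (1072 higher and 1506 lower of 19575). PARP2 measured 1.93 and 2.20 CPM in wild type against 64.2 and 60.4 in atxr5/6, 4.92 higher on the log2 scale (SE 0.18, edgeR adjusted p = 1.25e-05). BRCA1 rose by 3.08 (SE 0.24, adjusted p = 0.000591). SOG1, the transcription factor of the plant DNA damage response, measured 7.41 and 8.03 CPM in wild type against 4.40 and 5.03 in atxr5/6. It fell by 0.71 on the log2 scale in atxr5/6 (SE 0.12, edgeR adjusted p = 0.00912). SOG1 measured 9.58 and 10.4 CPM in gcn5 and 10.4 and 10.7 in atxr5/6 gcn5, above the wild-type libraries. The H2A.X gene HTA5 had a log2 fold change in atxr5/6 of 0.03, with a 95% interval from -0.22 to 0.28. In gcn5, 6 of the 11 rose and none fell, beside 18.1% of all genes higher and 19.4% lower. They include ATM, the kinase that acts at double-strand breaks, at 0.70 (SE 0.10, adjusted p = 0.00176) and RAD50 at 0.58 (SE 0.10, adjusted p = 0.00323).

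**Figure D4:**
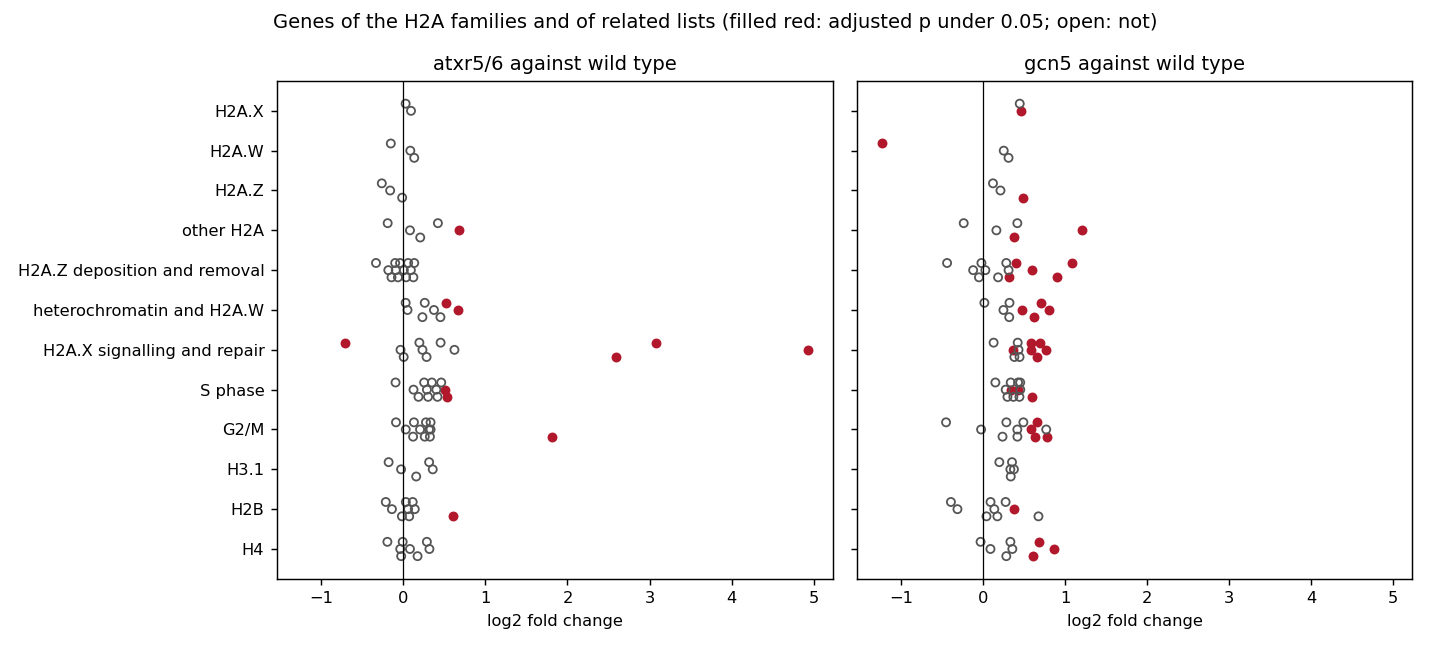
Log2 fold changes (horizontal axes) of single genes in atxr5/6 and in gcn5 against wild type, by list (vertical axis); filled red points have an adjusted p under 0.05 and open points do not, and the vertical offset within a list only separates points. In atxr5/6 the H2A.X signalling and repair list reaches 4.92 while the 8 variant genes lie between -0.26 and 0.13.

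Genes of dividing cells were measured because canonical histone genes follow DNA replication. Counts of the 5 lists that follow are read beside 13.2% of all genes called in atxr5/6 and 37.5% in gcn5. Of 19575 genes, 1072 were called higher in atxr5/6 and 3537 (18.1%) in gcn5. Of 12 S phase genes, 2 rose in atxr5/6 (MCM5 by 0.53 and MCM2 by 0.51) and 3 in gcn5, where MCM2 rose by 0.60. Of 12 G2/M genes, 1 rose in atxr5/6 (the cyclin CYCB1;1, by 1.81) and 4 in gcn5, led by CDC20.1 at 0.79. The summed CPM of the S phase list was 69.8 to 89.7 in wild type, 101.9 to 103.0 in atxr5/6 and 103.6 to 105.5 in gcn5. Their part in the values of the variant genes was not tested. Of 5 H3.1 genes, 0 were called in atxr5/6 or gcn5 (0 and 2 at an unadjusted p under 0.05). Of 11 H2B genes, 9 were tested and 1 rose in each, HTB3 by 0.61 in atxr5/6 and HTB2 by 0.38 in gcn5. Of 8 H4 genes, 0 were called in atxr5/6 and 3 rose in gcn5, with none lower. Beside them, 18.1% of all genes were called higher in gcn5 and 37.5% in either direction. The largest rise was that of AT1G07820, at 0.86 (SE 0.10, adjusted p = 0.000785, edgeR). H2B, H4 and H3.1 genes include close copies, and how reads that match several copies were counted is not given in the sources used here.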

How the data were processed

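Per the labels' protocols, leaf RNA was column-purified, ribosomal RNA was depleted, and stranded libraries were prepared from total RNA. For each of 8 libraries the authors deposited unnormalised counts per gene. STAR 2.7.2a, featureCounts 1.6.4 and the build TAIR10 are named in the submitters' processing notes, with no role given. Strand setting, annotation and treatment of multi-mapping reads are not given in the sources used here, nor are gene lengths of that build, so levels were not compared between genes. Names came from RefSeq (TAIR10.1), which lists 33056 of 33341 identifiers. The 24 chromatin samples and the transposon table were not analysed here.

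Counts were tested in R 4.3.3 with edgeR 4.0.16 (filterByExpr, minimum count 10; TMM; glmQLFit and glmQLFTest), all 8 libraries in 1 fit by genotype with 4 residual degrees of freedom, and p-values adjusted by Benjamini-Hochberg over 19575 genes. CPM used effective library sizes; SE is the log2 fold change over the square root of F. Correlations used log2 CPM with a prior count of 2, and ratios a prior count of 0.5. Replicates differed by more than counting noise (chi-square per degree of freedom 21.5 to 84.6). The test was also run on simulated counts. These held no shift in rDNA or plastid share with the gcn5 label, so they do not speak for that feature of the libraries.

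The members and lists were chosen with earlier results of these data known. Named were all members, the other H2A genes, the targeted genes, up to 3 called genes with the smallest p per list and single mutant, and the 3 genes most alike to each member; DDM1, named outside this rule, was chosen after its values were seen. The values of 1 gene that this rule names are not reported here. The rDNA list was first written as 7 features. After its values were seen, it was for a time narrowed to the 4 annotated as rRNA, and 3 features of high count beside them were found. The first list was restored as the planned setting, and the 4 and the 10 features are given as added alternatives. Other alternatives were RLE factors, library totals, removal of organelle genes and rDNA, 2 other count filters, DESeq2 1.42.0, only the genotypes compared, a replicate block, the rDNA share as a covariate and each library left out.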

Additional observations from a re-analysis of the deposited data

How the results depend on the processing

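Of 1048 recomputed log2 fold changes of the 8 genes (48 results under 22 alternatives), 894 kept their direction and side of the threshold, 85 were no longer called, 7 became called and 62 changed sign; no called value changed sign. The fall of HTA12 was called in 19 of 22 alternatives in each of its 3 comparisons (-1.43 to -1.08 in gcn5), all but the rDNA covariate under its 3 definitions. The smaller rises of HTA5 and HTA8 in gcn5 were called in 16 and 8 of 22.

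Calls in gcn5, in atxr5/6 gcn5 against wild type and against atxr5/6 numbered 3, 4 and 5. They numbered 1, 2 and 1 with library totals alone. They were 0, 0 and 0 with the rDNA share as a covariate, whether from 7, 4 or 10 features; the last 2 definitions were chosen after seeing the data. That share follows the gcn5 label, and over all genes the covariate left 6 calls in gcn5 with 7 features, 57 with 4 and 65 with 10, against 7343 without it. DESeq2 gave 2 and 3 calls in atxr5/6 gcn5 against wild type and against atxr5/6, and the fit of only the genotypes compared gave 2 against wild type. With 1 library left out, counts ranged from 1 to 5, 1 to 5 and 1 to 6, the lone library being assumed to vary like the others. The replicate numbers did not pair the libraries (correlations of deviations -0.170 to 0.183); with a replicate block the calls were 2, 4 and 4, and 0 in the other 3 comparisons.

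Sign changes were confined to uncalled values. HTA8 in atxr5/6 was 0.023 with RLE factors and DESeq2, 0.050 with library totals, and 0.033 without organelle genes, also with rDNA removed by 7 or 4 features. The interaction of HTA5 was -0.033 with RLE factors, -0.032 with DESeq2, -0.044 without organelle genes, -0.043 also with rDNA removed by 7 or 4 features, -0.0028 by 10, and -0.0011 without a filter. In atxr5/6 gcn5 against gcn5, library totals gave 0.094 for HTA6, 0.020 for HTA7, 0.0083 for HTA12 and 0.070 for HTA9. With the rDNA covariate of 7, 4 and 10 features, HTA3 in gcn5 was -0.22, -0.22 and -0.13 and HTA7 was -0.060, -0.057 and -0.033. In atxr5/6 gcn5, HTA7 was then -0.14, -0.14 and -0.10 against wild type and -0.20, -0.20 and -0.17 against atxr5/6, and HTA11 was 0.46, 0.46 and 0.45 against wild type. The cause was not tested.

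With 1 library left out, atxr5/6 values ran from -0.015 to 0.27 for HTA3, -0.045 to 0.13 for HTA5, -0.33 to 0.093 for HTA6, -0.066 to 0.35 for HTA12, -0.093 to 0.056 for HTA8 and -0.42 to 0.24 for HTA11. HTA11 ran from -0.20 to 0.52 in gcn5 and from -0.37 to 0.34 in atxr5/6 gcn5, both against wild type. Against gcn5, the triple mutant ran from -0.040 to 0.10 for HTA5, -0.15 to 0.13 for HTA6, -0.19 to 0.045 for HTA7 and -0.069 to 0.039 for HTA9. The interaction ran from -0.067 to 0.52 for HTA3, -0.10 to 0.086 for HTA5, -0.10 to 0.33 for HTA6 and -0.42 to 0.25 for HTA11.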
